A study of Rattus norvegicus with 36 samples.

Results

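The upper dose step of this study compared livers of rats given 95.9 mg/kg of decabromodiphenyl oxide (decaBDE, a brominated flame retardant) with livers of rats given 9.59 mg/kg, a 10-fold lower dose. Its members were the 6 arrays of each dose, taken by the dose in the sample title, so 12 of the 36 arrays of the series. All 36 came from male Harlan Sprague Dawley rats that were 7 weeks old when the study began and were given decaBDE in corn oil, 5 ml/kg, by gavage on 5 days in a row. The vehicle rats were given corn oil alone, and the remaining doses were 0.1, 0.959 and 959 mg/kg. RNA of the left liver lobe, taken 1 day after the last dose, was measured on Affymetrix 3' expression arrays. The labels give replicate numbers 1 to 6 within each dose but do not state outright that each array is a separate rat, so the p-values measure the spread between arrays.

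Values are log2 RMA signals, so a difference of 1 is a doubling of signal. Each of 31042 probe sets, the sets of probes that report 1 transcript, was fitted with limma, with 1 mean for each of the 6 groups and a spread pooled over all 36 arrays. "Called" means an adjusted p under 0.05 (Benjamini-Hochberg over all 31042 probe sets), and "the step" is the mean at 95.9 mg/kg minus the mean at 9.59 mg/kg. Where a gene had several probe sets, the one with the highest mean signal stands for it, which gave 14217 genes. Pairs of arrays correlated at 0.993 to 0.996 across probe sets, both within and between the 2 doses.

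Ligand-activated programs of drug metabolism are the background to these values. The aryl hydrocarbon receptor (AhR) binds planar aromatic compounds, pairs with Arnt and switches on Cyp1a1, Cyp1a2 and Cyp1b1, together with its own repressors Ahrr and Tiparp. The receptors CAR and PXR respond to a wide range of drugs and halogenated chemicals and raise Cyp2b, Cyp3a and Cyp2c enzymes, conjugating enzymes of the Ugt and sulfotransferase families and export pumps such as Abcc3.

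Over the step, Cyp1a1 was called higher and no other probe set was called in either direction, 1 of 31042 or 0.00322% (1 of 14217 genes, 0.00703%). CAR and PXR targets that were called against vehicle at both doses, among them Cyp2b, Cyp3a23-3a1, Ces2c and Ugt2b1, had steps close to 0 with intervals within a 1.5-fold change. Those calls used the arrays of the step itself, and a call at both doses favours small steps. An unadjusted p under 0.05 was reached by 2041 probe sets (6.57%), 995 of them higher (3.21%) and 1046 lower (3.37%). The median half-width of the 95% interval was 0.16 in log2 units, and for 30230 probe sets (97.4%) the whole interval lay within a 1.5-fold change (0.58 in log2 units) in either direction.

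Cyp1a1 encodes the cytochrome P450 that is used most widely as a readout of AhR activity. At 9.59 mg/kg its log2 signal in replicates 1 to 6 was 4.50, 4.64, 5.11, 4.80, 4.29 and 4.82, which averaged 4.70 ± 0.284 (SD, n = 6). At 95.9 mg/kg the values were 5.83, 7.26, 6.47, 6.85, 5.37 and 6.18, which averaged 6.32 ± 0.687 (SD, n = 6). Every array at 95.9 mg/kg lay above every array at 9.59 mg/kg, which was true of 43 probe sets in all (0.139%). Replicates 2 and 4 were the highest at 95.9 mg/kg, and replicate 5 was the lowest in both groups.

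The step of Cyp1a1 was 1.63 (SE 0.222, 95% interval 1.18 to 2.08), a 3.09-fold rise (2.27 to 4.23), with an adjusted p of 0.000407 in the limma model. Set against the mean of the 9.59 mg/kg arrays, single arrays at 95.9 mg/kg ranged from 1.59-fold in replicate 5 to 5.93-fold in replicate 2. Leaving out any one of the 12 arrays kept the call, with steps from 1.44 to 1.82. When the model was fitted to the 12 arrays alone, the estimate stayed the same but the call was lost (adjusted p 0.246, unadjusted p 7.91e-06, the smallest of all probe sets), with 10 residual degrees of freedom in place of 30. The pooled SD of Cyp1a1 within a group was also larger over the 12 arrays, 0.526, than over all 36, 0.412, so the other groups also lowered the spread behind the call. The exact two-sided permutation test on the 12 arrays gave p = 0.00216, the smallest value that 6 against 6 can give. The array carries 1 probe set for Cyp1a1, so no second probe set could be set beside it. At 9.59 mg/kg 56.7% of probe sets were brighter and the level was that of vehicle, so a signal above background was not shown there, and the fold may be a lower bound.

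**Figure D1:**
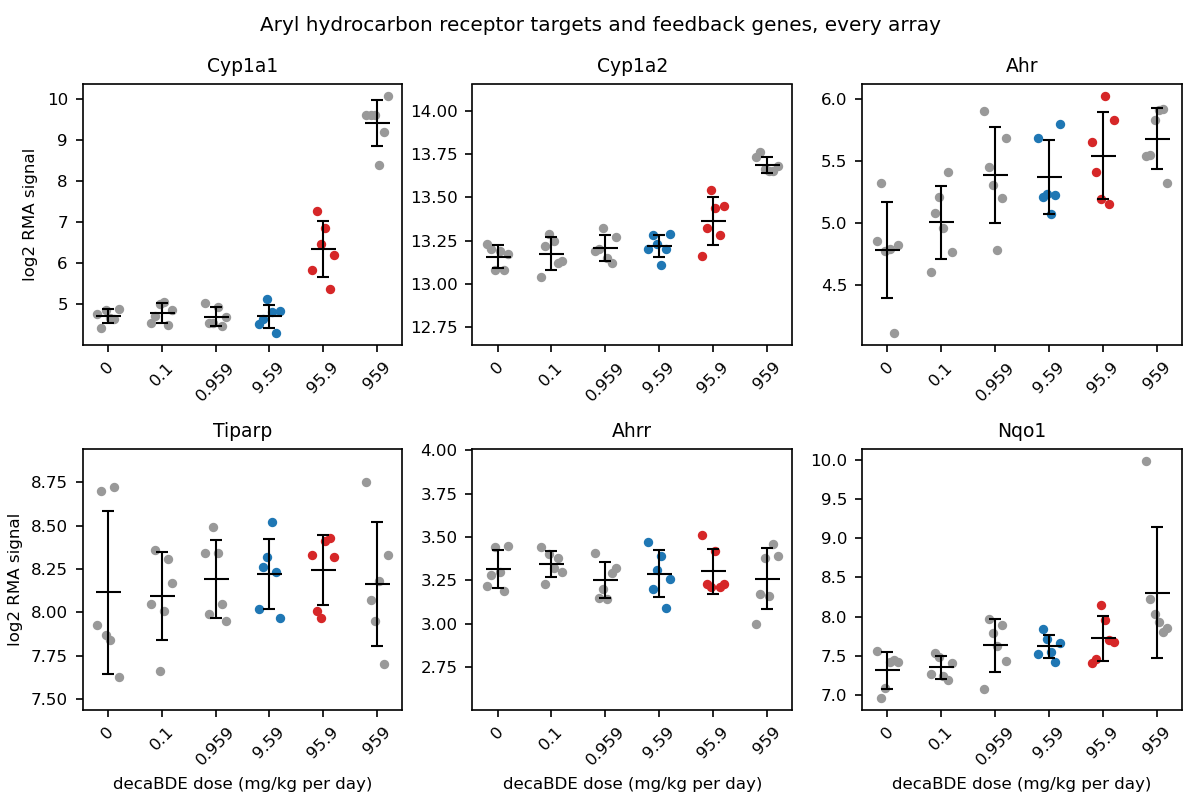
Log2 RMA signal (vertical axes) of 6 AhR genes in every array at each daily dose of decaBDE in mg/kg (horizontal axes, 0 is vehicle), with 9.59 mg/kg in blue, 95.9 mg/kg in red, and black bars for the mean ± SD of 6 arrays. Cyp1a1 shows no overlap between the blue points (4.29 to 5.11) and the red points (5.37 to 7.26), while the blue and red points overlap in the panels of Cyp1a2, Ahr, Tiparp, Ahrr and Nqo1.

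The lower doses gave Cyp1a1 values close to those of vehicle. It averaged 4.69 ± 0.174 (SD, n = 6) in vehicle, 4.77 at 0.1 mg/kg, 4.68 at 0.959 mg/kg and 4.70 at 9.59 mg/kg, all with overlapping arrays, and 959 mg/kg gave 9.41 ± 0.568 (SD, n = 6). The change from 0.959 to 9.59 mg/kg, the step below, was 0.01 (SE 0.222, adjusted p 0.995 in limma), and the change from 95.9 to 959 mg/kg, the step above, was 3.09 (SE 0.222, adjusted p 2.25e-11), in comparisons that called 0.00322% and 0.00644% of probe sets. The steps share arrays with one another, so the difference between them was tested in the same fit. The upper step exceeded the one below by 1.62 (SE 0.384, unadjusted p 0.000168, adjusted p 0.19), and the one above exceeded the upper step by 1.46 (SE 0.384, unadjusted p 0.000562, adjusted p 0.886). Neither difference passed the adjustment over all probe sets.

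Cyp1a2, the other P450 of the family that liver makes in quantity, did not pass the test over this step. Its signal ran from 13.11 to 13.29 with a median of 13.22 at 9.59 mg/kg, and from 13.16 to 13.54 with a median of 13.38 at 95.9 mg/kg. In 4 of the 6 arrays at 95.9 mg/kg it lay above every array at 9.59 mg/kg, and the groups overlapped in the remaining 2. The step of Cyp1a2 was 0.15 (SE 0.0539, 95% interval 0.04 to 0.26, adjusted p 0.652 in limma), and the exact permutation test on the 12 arrays gave p = 0.0519. At 9.59 mg/kg 0.345% of probe sets were brighter than Cyp1a2, and whether differences are compressed at such brightness was not tested. Between 95.9 and 959 mg/kg Cyp1a2 changed by 0.32 and was called (adjusted p 0.0121).

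The receptor and its feedback genes gave wider overlap. Ahr, the receptor itself, ran from 5.07 to 5.80 (median 5.23) at 9.59 mg/kg and from 5.15 to 6.02 (median 5.53) at 95.9 mg/kg. Its step was 0.17 (SE 0.18, 95% interval -0.19 to 0.54, adjusted p 0.933), and a dimmer second probe set gave -0.04. Tiparp, which modifies and silences the receptor, had a step of 0.02 (-0.31 to 0.36) by its brighter probe set and of 0.25 (-0.18 to 0.67) by a dimmer one, an interval that passes 1.5-fold. Ahrr, the AhR repressor, had a step of 0.01 (-0.14 to 0.16). The values of 0.02 and 0.01 changed sign when single arrays were left out.

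Of the other AhR genes, Nqo1, a quinone reductase that NRF2 also drives, had a step of 0.10 (-0.34 to 0.55). Cyp1b1, a P450 made mainly outside hepatocytes, had one of -0.06 (-0.22 to 0.10), and Aldh3a1, an aldehyde dehydrogenase that is inducible by dioxins in rat liver, one of -0.11 (-0.26 to 0.04). Of 9 measured genes on the AhR list, 1 was called (Cyp1a1), and 6 had a positive and 3 a negative step. By the brightest probe set of each gene the intervals of all but Cyp1a1 lay within a 1.5-fold change (all genes, 97.1%). Of the 9, 4 had a mean signal below 5.16, the median of all probe sets. Ahrr and Aldh3a1 averaged 3.29 and 3.33 at 9.59 mg/kg, and 3.26 and 3.23 at 959 mg/kg. A signal above background was not shown for them, so their narrow intervals do not show an unchanged transcript. The median step of the list was 0.02, and that of all 14217 genes was -0.00569.

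The genes of CAR and PXR differed little between these doses. The probe set shared by Cyp2b1 and Cyp2b2, the classic targets of CAR in rat liver, had signals of 13.71, 13.55, 13.31, 13.59, 13.35 and 13.59 at 9.59 mg/kg and of 13.26, 13.52, 13.53, 13.69, 13.66 and 13.42 at 95.9 mg/kg. The groups overlapped fully, and its step was -0.0013 (SE 0.177, 95% interval -0.36 to 0.36). Against the same 6 vehicle arrays, the shared Cyp2b probe set was 2.55 higher at 9.59 mg/kg, 2.55 higher at 95.9 mg/kg and 2.60 higher at 959 mg/kg, all called. The signals were as bright as those of Cyp1a2, so the remark on compression holds here too. These 3 comparisons share the vehicle arrays and called 0.116%, 0.0902% and 0.11% of all probe sets.

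Cyp3a23-3a1, the PXR-inducible P450 of rat liver, had a mean of 13.41 ± 0.0957 at 9.59 and 13.43 ± 0.132 at 95.9 mg/kg (SD, n = 6), a step of 0.02 (-0.12 to 0.15). Ugt2b1, a glucuronosyltransferase, had a step of -0.05 (-0.29 to 0.19), with signals of 13.28 to 13.49 and 13.18 to 13.39. Ces2c, a carboxylesterase, had a step of 0.02 (-0.23 to 0.26). Each of these was called against vehicle at both doses, by 0.58 and 0.59 for Cyp3a23-3a1, 0.97 and 0.92 for Ugt2b1, and 0.95 and 0.96 for Ces2c. Cyp3a23-3a1 and Ugt2b1 were about as bright as Cyp1a2, so the remark on compression holds for them too. Abcc3, a basolateral efflux pump for conjugates, had a median of 6.49 at 9.59 and of 6.26 at 95.9 mg/kg, and its step was -0.19 (-0.56 to 0.18). Por, the reductase that feeds electrons to all microsomal P450s, had a step of -0.11 (-0.32 to 0.10). It was called against vehicle at 9.59 mg/kg (adjusted p 0.0334) and not at 95.9 mg/kg (adjusted p 0.217), and the step itself, which is the test of that difference, had an adjusted p of 0.919.

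**Figure D2:**
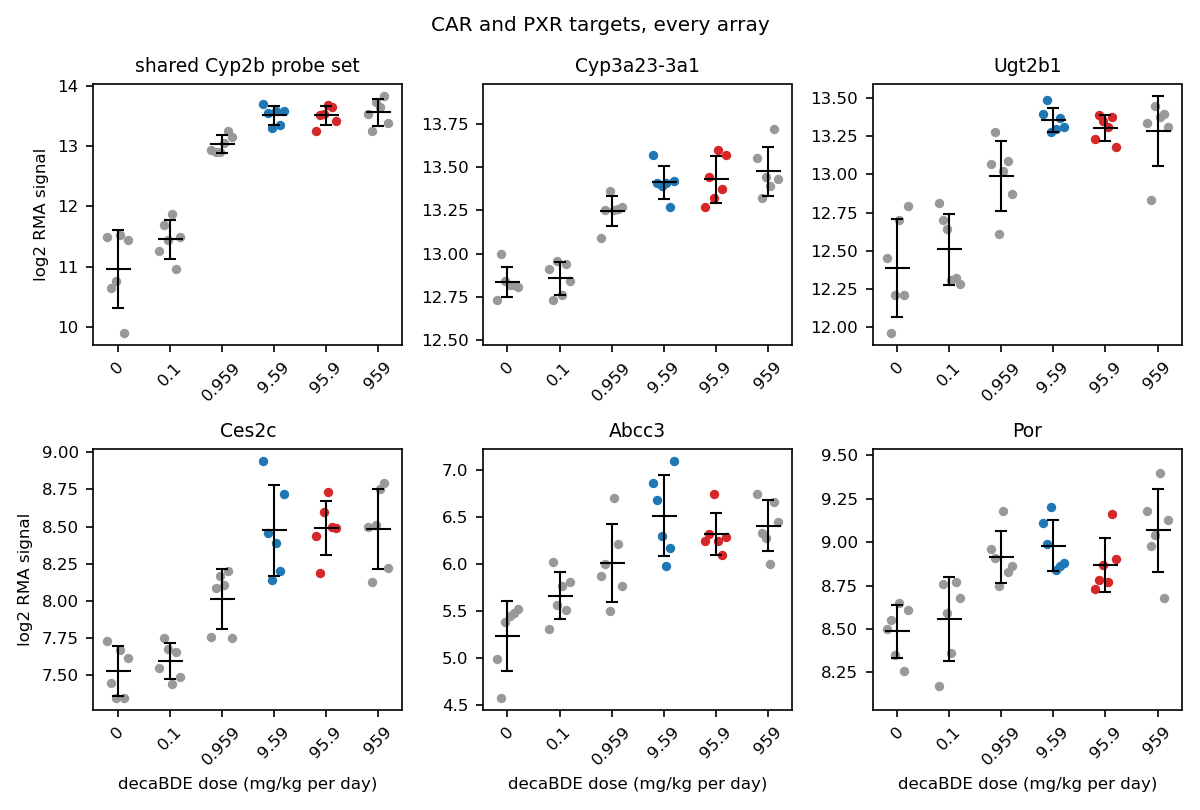
Log2 RMA signal (vertical axes) of 5 CAR and PXR target genes and the probe set shared by Cyp2b1 and Cyp2b2, in every array at each daily dose in mg/kg (horizontal axes, 0 is vehicle), with 9.59 mg/kg in blue, 95.9 mg/kg in red, and black bars for the mean ± SD of 6 arrays. The blue and red points overlap in every panel, and the shared Cyp2b probe set has means of 13.52 and 13.51.

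Of 25 measured genes on the CAR and PXR list, 0 were called, 13 had a positive and 12 a negative step, and 0 had an unadjusted p under 0.05 (all genes, 5.41%). The median step was 0.01, and 22 of the 25 intervals lay within a 1.5-fold change (all genes, 97.1%). The receptors themselves, Nr1i3 (CAR) and Nr1i2 (PXR), had steps of 0.22 (-0.16 to 0.60) and 0.01 (-0.12 to 0.15). Cyp3a9, a P450 of the same subfamily, had the widest interval on the list: it ran from 8.24 to 9.72 at 9.59 mg/kg and from 8.65 to 10.28 at 95.9 mg/kg, with a step of 0.53 (-0.11 to 1.18, adjusted p 0.824). Both probe sets shared by the Ugt1a genes had intervals within a 1.5-fold change, with steps of -0.03 and 0.02.

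The genes that respond at 959 mg/kg were then followed through the step. The 959 mg/kg and vehicle arrays do not enter its means, but they enter the pooled spread, which both chose these genes and sets the intervals and calls of the step. In that comparison 34 probe sets (0.11%) were called, 32 of them higher (0.103%) and 2 lower (0.00644%). Of the 32, Cyp1a1 alone was called over the step. The other 31 had a median step of 0.02, ranging from -0.19 for Abcc3 to 0.21 for App, the amyloid precursor protein gene. Of these, 18 were positive and 13 negative. All 31 intervals lay within a 1.5-fold change, as did those of 97.4% of all probe sets. The 31 stand for 23 genes and 3 probe sets shared by several genes, so some genes were counted more than once. The value for App was the highest of its 3 probe sets, the other two giving 0.07 and 0.08.

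The median of these 31 probe sets stood 0.40 above vehicle at 9.59 mg/kg, 0.40 at 95.9 mg/kg and 0.52 at 959 mg/kg. They were chosen by the comparison at 959 mg/kg, which favours a large value there. The vehicle arrays of that comparison enter all 3 medians, so these values are not a test of dose. Among the 31 were Ephx1, the microsomal epoxide hydrolase, with a step of -0.04 (-0.18 to 0.10), and Cyp2c6v1, a P450 of the CAR group, with one of 0.06 (-0.03 to 0.16). Both were about as bright as Cyp1a2 or brighter, so the remark on compression holds for them too. Mmgt1, a membrane magnesium transporter, and Cndp2, a cytosolic dipeptidase, had steps of 0.04 (-0.11 to 0.19) and 0.01 (-0.14 to 0.16). Of the 2 probe sets lower at 959 mg/kg, Ak4, a mitochondrial adenylate kinase, had a step of 0.03 and Cars1, the cysteinyl-tRNA synthetase, one of -0.10.

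**Figure D3:**
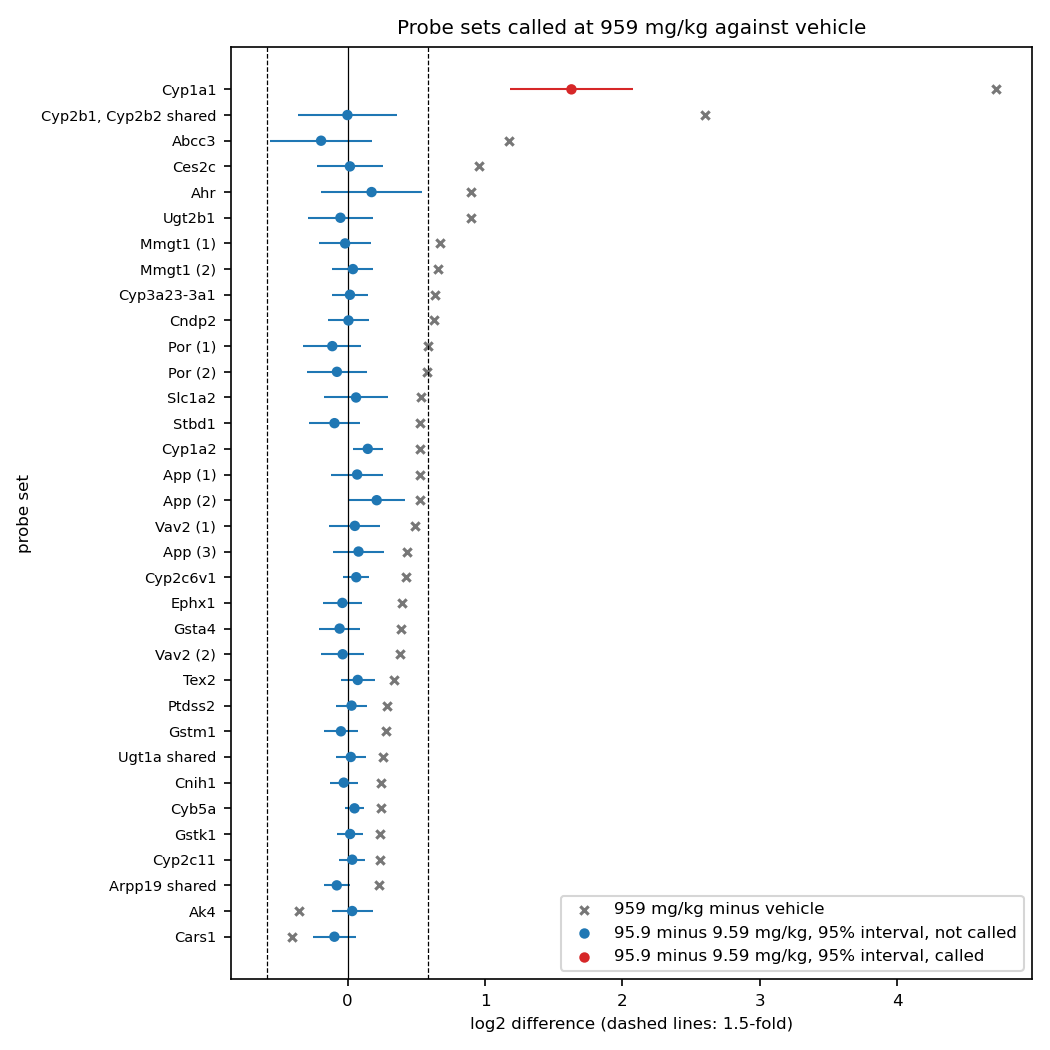
The 34 probe sets called at 959 mg/kg against vehicle (vertical axis, numbered where a gene has several), with the log2 difference at 959 mg/kg as grey crosses and the step from 9.59 to 95.9 mg/kg as dots with 95% intervals, red where called and blue where not; the dashed lines mark a 1.5-fold change. The interval of Cyp1a1 lies beyond the dashed line at 1.18 to 2.08, and the 33 others lie between the lines.

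Over all genes, few estimates were large. A step past 1.5-fold was estimated for 14 probe sets upward (0.0451%) and 3 downward (0.00966%), and past 2-fold for 2 upward (0.00644%) and 0 downward. The second of those 2, Abhd3, a phospholipase gene named here after its values were seen, had signals of 3.00, 3.42, 3.01, 2.93, 8.69 and 2.99 at 9.59 mg/kg and of 8.43, 7.47, 3.38, 3.28, 7.74 and 3.16 at 95.9 mg/kg. Its arrays fell near 3 or near 8 in both groups, with 1 high array at 9.59 and 3 at 95.9 mg/kg, and its step of 1.57 had an SE of 1.24 (adjusted p 0.884). A second, dim probe set of Abhd3 gave 0.08.

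**Figure D4:**
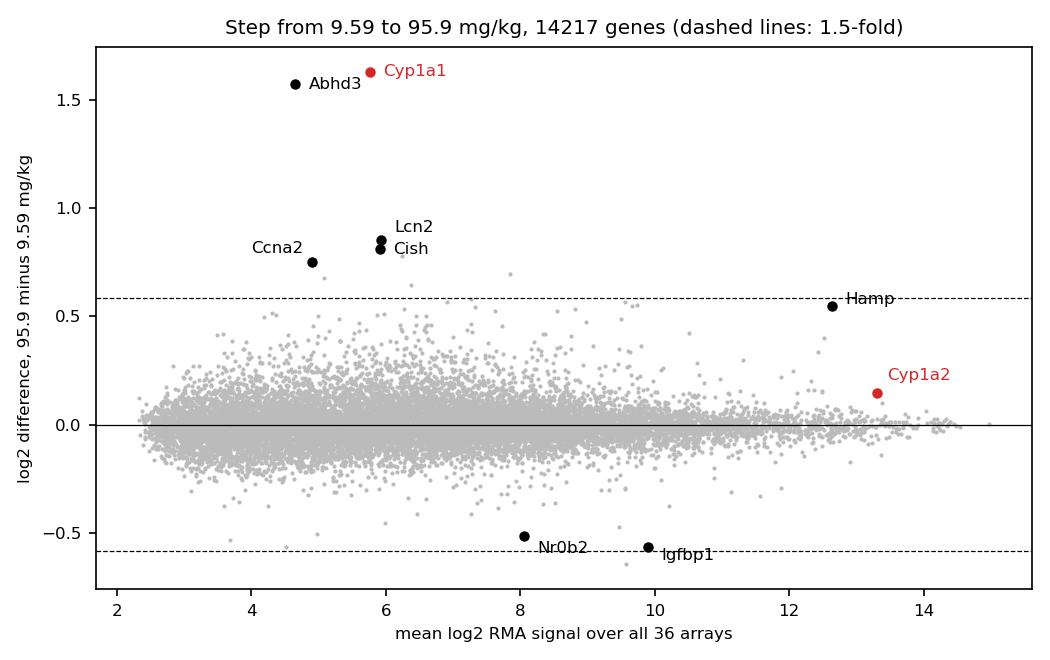
Step from 9.59 to 95.9 mg/kg (vertical axis, log2 difference) against mean log2 RMA signal over all 36 arrays (horizontal axis) for 14217 genes, 1 grey point each, with dashed lines at a 1.5-fold change and named genes as larger points. Cyp1a1 at 1.63 and Abhd3 at 1.57 stand apart from the cloud, and Cyp1a2 at 0.15 lies within it.

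Below Cyp1a1, the smallest unadjusted p-values among genes higher at 95.9 mg/kg belonged to Tmtc1 and Zyg11b, and neither was called. Tmtc1, an endoplasmic reticulum mannosyltransferase, ran from 5.75 to 6.08 (median 5.93) at 9.59 mg/kg and from 6.22 to 6.43 (median 6.31) at 95.9 mg/kg without overlap, a step of 0.39 (SE 0.0923, adjusted p 0.415). Adamts8, a secreted metalloprotease, ran from 2.76 to 2.91 and from 2.95 to 3.22, also without overlap, with a step of 0.25 (SE 0.0661, adjusted p 0.482). Its mean in vehicle was 3.21, so the 9.59 mg/kg arrays stood 0.34 below vehicle (adjusted p 0.0147) and the 95.9 mg/kg arrays 0.09 below it. At 9.59 mg/kg Adamts8 averaged 2.87, dimmer than Ahrr and Aldh3a1. A signal above background was not shown for it either, so these differences do not show a change in transcript. Zyg11b, a ubiquitin ligase subunit, ran from 6.11 to 6.37 and from 6.32 to 6.67, with a step of 0.28 (SE 0.0698, adjusted p 0.415), while its dimmer probe set gave 0.06 (-0.20 to 0.32). Tmtc1 averaged 6.12 in vehicle, 5.92 at 9.59 and 6.30 at 95.9 mg/kg. Zyg11b averaged 6.33, 6.22 and 6.50 by its brighter probe set.

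On the lower side, the leading genes were the uncharacterised LOC102549836 and C2cd4b, again not called. LOC102549836 ran from 3.84 to 4.28 and from 3.54 to 3.85, a step of -0.36 (SE 0.0834, adjusted p 0.415). C2cd4b ran from 4.44 to 4.87 and from 4.29 to 4.60, a step of -0.26 (SE 0.0633, adjusted p 0.415). Both genes lay below 5.16, the median signal of all probe sets, and a signal above background was not shown for them. Bag6, a chaperone for membrane proteins, had a step of -0.20 by its brighter probe set and of 0.10 by the other. Without overlap between the arrays were 18 genes higher (0.127%) and 19 genes lower (0.134%) at 95.9 mg/kg.

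The tests of this step against its neighbours called 0 probe sets. Against the step from 0.959 to 9.59 mg/kg, limma gave an unadjusted p under 0.05 for 2315 probe sets (7.46%), and the linear model without variance moderation also called 0. Leaving out 9.59 mg/kg replicate 4, 5 or 6 gave 2, 9 or 16 calls on the higher side there, leaving out replicate 1 or 6 gave 1 call on the lower side, and leaving out 0.1 mg/kg replicate 6 gave 3 on the higher side. Against the step from 95.9 to 959 mg/kg, limma gave 1624 probe sets (5.23%) at an unadjusted p under 0.05, and the model without moderation called 0. Zyg11b and C2cd4b led the first of these contrasts, at 0.56 (adjusted p 0.137) and -0.51 (adjusted p 0.136).

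Gene lists for liver functions and for the cell types of liver were then read for this step. In bulk tissue, a change in the number of cells of a type and a change in RNA per cell cannot be told apart. No list had a called member apart from the AhR list, and the median step of all genes was -0.00569, with 46.9% of genes positive. The arrays read as liver at both doses: 18 hepatocyte markers had a mean signal of 13.4 in each group, and all 18 exceeded the median signal of the array, a rough guide because probe sets differ in affinity. Their median step was -0.01, and Hnf4a, the hepatocyte transcription factor, had a step of -0.01 (-0.22 to 0.20). Alb (albumin), the brightest probe set, stood at 14.98 in all 6 arrays at 95.9 mg/kg, and Ttr (transthyretin) at 14.50 to 14.60 over both doses. Both lie at the top of the signal range, so a change in these 2 genes could go unseen, and their steps are not read here.

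**Figure D5:**
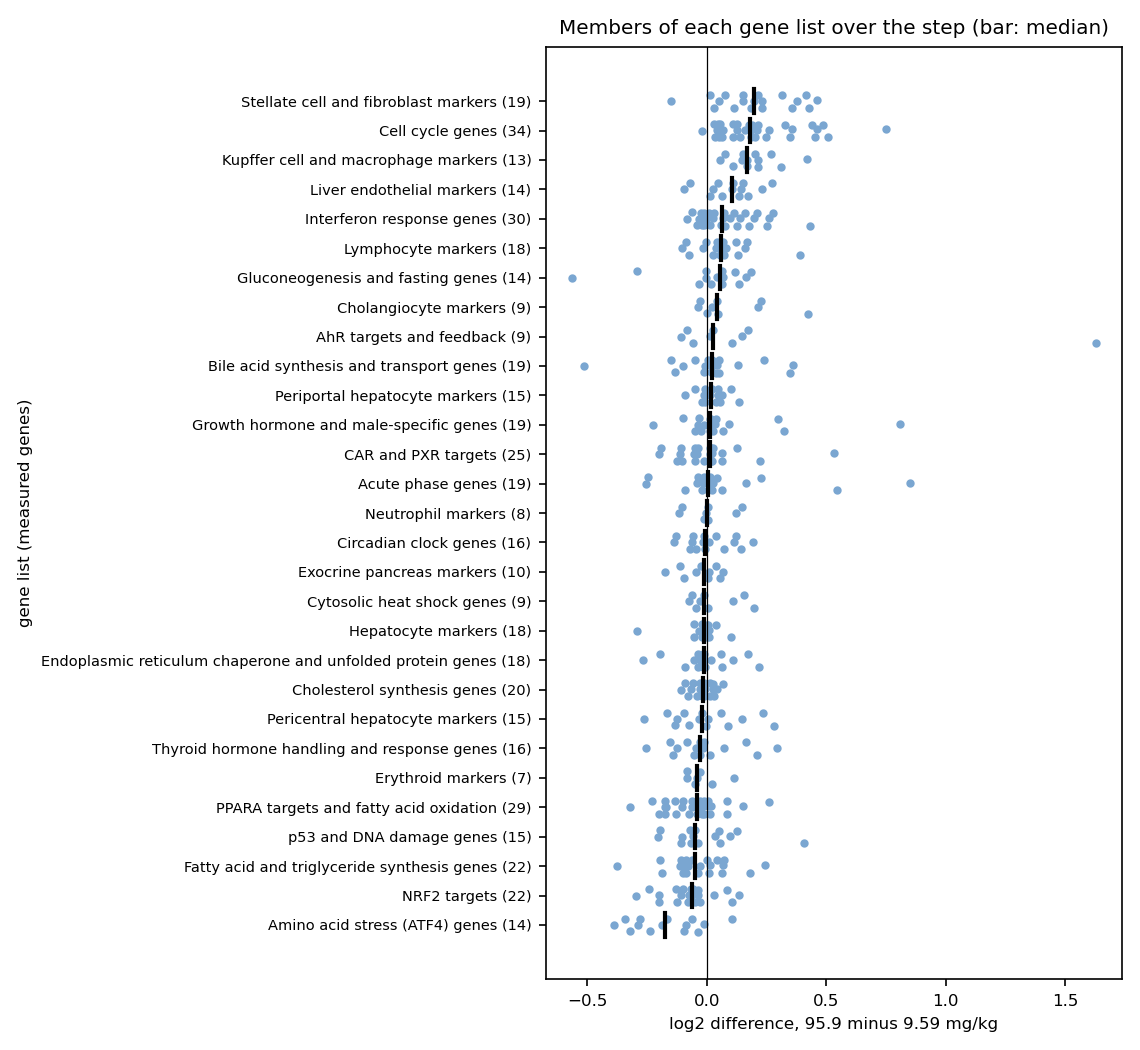
Step from 9.59 to 95.9 mg/kg (horizontal axis, log2 difference) of each measured member of 29 gene lists (vertical axis, number measured in brackets), with a black bar at the median of each list. The medians run from -0.18 for the ATF4 genes to 0.20 for the stellate cell and fibroblast markers, and the point at 1.63 is Cyp1a1.

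Cell cycle genes were the longest list with nearly all estimates on one side. Of 34 measured, 33 had a positive and 1 a negative step, 6 reached an unadjusted p under 0.05 upward (17.6%, against 2.55% of all genes), 0 were called, and the median was 0.18. Ccna2, cyclin A2, ran from 3.51 to 5.16 (median 4.66) at 9.59 mg/kg and from 4.51 to 5.82 (median 5.49) at 95.9 mg/kg, a step of 0.75 (SE 0.278, 95% interval 0.19 to 1.32, adjusted p 0.652). Its means were 4.64 in vehicle and 4.52, 5.13, 4.57, 5.32 and 5.22 at the doses from 0.1 to 959 mg/kg. Mki67, the proliferation marker, had a step of 0.45 (0.07 to 0.83), Bub1, a spindle checkpoint kinase, 0.51 (0.07 to 0.94), and Mcm5, a replicative helicase subunit, 0.20 (SE 0.0782). Genes of one list share arrays and vary together, so the count of 33 is not 33 separate observations. The mean deviation of the list from its 36-array average ran from -0.32 to 0.10 at 9.59 mg/kg and from -0.21 to 0.36 at 95.9 mg/kg, and these ranges overlapped.

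Markers of the supporting cells of liver leaned the same way. Of 19 stellate cell and fibroblast markers, 18 had a positive step, and the median was 0.20, with 0 called. Of the 19, 6 had an unadjusted p under 0.05 upward (31.6%, against 2.55% of all genes). These genes share arrays and vary together, so the counts of 18 and 6 are not separate observations. Timp1, an inhibitor of matrix metalloproteases, ran from 6.97 to 7.10 (median 7.07) and from 7.10 to 7.87 (median 7.27); before rounding the groups did not overlap, and the step was 0.32 (SE 0.123, adjusted p 0.668). Col1a1, the collagen I chain, had a step of 0.46 (0.07 to 0.85), Col5a2 0.38 (SE 0.15), and Vim, vimentin, 0.36 (0.03 to 0.68). Dimmer probe sets gave 0.272 for Col1a1 and 0.375 for Col5a2. Timp1 averaged 6.81 in vehicle, 7.05 at 9.59 and 7.36 at 95.9 mg/kg, and Col5a2 7.38, 7.48 and 7.86. At 959 mg/kg their means were 7.20 and 7.58, both below those at 95.9 mg/kg. The mean signal of the list was 7.12 at 9.59 mg/kg (arrays 6.88 to 7.32) and 7.32 at 95.9 mg/kg (arrays 7.09 to 7.58).

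All 13 Kupffer cell and macrophage markers had a positive step, with a median of 0.17 and 0 called. An unadjusted p under 0.05 upward was reached by 1 of them (7.69%, against 2.55% of all genes). These markers also share arrays, so the count of 13 is not 13 separate observations. Mrc1, the mannose receptor, ran from 8.46 to 8.77 and from 8.38 to 9.10, a step of 0.21 (SE 0.0954). Lyz2, lysozyme, had a step of 0.42 (SE 0.219), and Clec4f, a lectin of rodent Kupffer cells, one of 0.11 (-0.42 to 0.64). Mrc1 averaged 8.83 in vehicle, 8.61 at 9.59 and 8.82 at 95.9 mg/kg, so its mean at 95.9 mg/kg stood at the vehicle level. Lyz2 averaged 10.41, 10.24 and 10.66. The arrays at 95.9 mg/kg spread widely on this list, with mean signals from 7.86 to 9.06, and held both the lowest and the highest array of the 12, which at 9.59 mg/kg ran from 8.07 to 8.72.

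Of 14 liver endothelial markers, 12 had a positive step, with a median of 0.11 and 0 called. Emcn, endomucin, had the smallest p of these, with a step of 0.27 (SE 0.105, adjusted p 0.66), while Kdr, a VEGF receptor, had one of 0.11 by its brighter and of -0.04 by its dimmer probe set. Emcn averaged 7.72 in vehicle, 7.51 at 9.59 and 7.78 at 95.9 mg/kg. By its brighter probe set Kdr averaged 9.80, 9.66 and 9.77, so both genes stood near the vehicle level at 95.9 mg/kg. The list's mean signal ran from 7.28 to 7.42 at 9.59 mg/kg and from 7.26 to 7.52 at 95.9 mg/kg. Lymphocyte markers had a median of 0.06 (13 of 18 positive) and cholangiocyte markers one of 0.04 (7 of 9 positive), with 0 called in either list. For neutrophil markers the median was -0.00026, for erythroid markers -0.04 and for exocrine pancreas markers -0.01.

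RNA quality was measured beside these lists through the 3' and 5' probe sets of the actin controls. The 3' minus 5' difference averaged 1.20 ± 0.0904 at 9.59 mg/kg and 1.17 ± 0.0803 at 95.9 mg/kg (SD, n = 6; exact permutation p = 0.483). For GAPDH it averaged -0.03 ± 0.0562 and -0.10 ± 0.0506 (exact permutation p = 0.0584). The part of RNA quality and of cell numbers in the list values was not tested.

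Genes of amino acid stress, which ATF4 drives, lay on the other side of 0. Of 14 measured, 13 had a negative step and the median was -0.18, with 0 called and 0 at an unadjusted p under 0.05. Sesn2, a sensor of leucine, ran from 7.09 to 7.49 (median 7.27) and from 6.77 to 7.24 (median 7.04), a step of -0.24 (SE 0.123), and Asns, asparagine synthetase, had a step of -0.29 (SE 0.247). The mean signal of the list ran from 6.92 to 7.74 and from 6.86 to 7.77, and 5 of 14 intervals lay within a 1.5-fold change, so a change of that size was not resolved for the other 9. Among NRF2 targets 18 of 22 had a negative step, with a median of -0.06, and Gclc, the catalytic subunit that makes glutathione's precursor, had one of -0.20 (SE 0.115).

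Lipid genes gave small values. Of 29 PPARA targets and fatty acid oxidation genes, 21 had a negative step with a median of -0.04, 4 had an unadjusted p under 0.05 downward (13.8%, against 2.86% of all genes) and 0 were called. Hadhb, a subunit of the mitochondrial trifunctional protein, ran from 11.76 to 12.04 and from 11.61 to 11.91, a step of -0.13 (SE 0.0566). Cholesterol synthesis genes had a median of -0.01 and fatty acid and triglyceride synthesis genes one of -0.05.

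In the bile acid list the orphan receptor Nr0b2 (SHP), a repressor of bile acid synthesis, had no overlap between groups. Its signal was 8.17, 8.19, 8.20, 8.65, 8.08 and 8.51 at 9.59 mg/kg and 7.85, 8.07, 7.73, 8.03, 7.73 and 7.31 at 95.9 mg/kg, with a mean of 8.22 in vehicle. Its means were 7.88, 7.93, 8.30, 7.79 and 8.18 at the doses from 0.1 to 959 mg/kg, so the 95.9 mg/kg mean lay near those of the lowest doses. The step was -0.51 (SE 0.256, 95% interval -1.03 to 0.01, adjusted p 0.762 in limma). The spread of Nr0b2 within a group was larger over all 36 arrays (pooled SD 0.476) than over these 12 (0.251), and the 12-array fit gave an unadjusted p of 0.000869 and an adjusted p of 0.585. Cyp7a1, the rate-limiting enzyme of bile acid synthesis, had a step of -0.13 (-0.99 to 0.72), and Slco1a1, a hepatic uptake transporter, one of 0.13 (SE 0.0592, adjusted p 0.745). The list as a whole had 12 positive and 7 negative steps with a median of 0.02.

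Of 19 measured acute phase genes, 11 had a positive and 8 a negative step, and 0 were called. An unadjusted p under 0.05 was reached by 3 upward (15.8%, against 2.55% of all genes) and 1 downward (5.26%, against 2.86%). Lcn2, lipocalin 2, ran from 4.75 to 6.00 and from 5.46 to 7.59, with replicate 4 the highest at 95.9 mg/kg, a step of 0.85 (SE 0.38, adjusted p 0.738). In vehicle Lcn2 ran from 5.29 to 7.51. Hamp, hepcidin, had a step of 0.55 (SE 0.23, adjusted p 0.701). It averaged 12.80 in vehicle and 12.81, 12.42, 12.40, 12.95 and 12.42 at the doses from 0.1 to 959 mg/kg. Il1rn, the interleukin 1 receptor antagonist, ran from 5.69 to 5.97 and from 5.33 to 5.70, a step of -0.24 (SE 0.0898, adjusted p 0.652). The median of the list was 0.01. Thyroid hormone genes, of interest because brominated diphenyl ethers resemble thyroid hormone in structure, had 5 positive and 11 negative steps with a median of -0.03. Slc16a10, a transporter of thyroid hormone and aromatic amino acids, ran from 5.93 to 6.16 and from 6.02 to 6.59, a step of 0.29 (SE 0.106, adjusted p 0.652), and Dio1, the deiodinase of liver, had one of -0.08 (SE 0.083).

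The remaining lists had medians between -0.05 and 0.06 and 0 called members: p53 and DNA damage genes -0.05, endoplasmic reticulum chaperones -0.01, cytosolic heat shock genes -0.01, circadian clock genes -0.01, pericentral hepatocyte markers -0.02, periportal hepatocyte markers 0.02, growth hormone and male-specific genes 0.02, gluconeogenesis and fasting genes 0.05, and interferon response genes 0.06. Single members with wide intervals were Igfbp1, an insulin-suppressed binding protein, at -0.56 (-1.19 to 0.06), and Cish, a feedback inhibitor of growth hormone signalling, at 0.81 (-0.34 to 1.96). Of the 30 interferon response genes, 15 had an interval within a 1.5-fold change.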

How the data were processed

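The deposited values are log2 signals per probe set, made by the authors with RMA in the affy package, per the submitters' processing notes; the version is not given in the sources used here. RMA corrects the background, normalizes the arrays to 1 distribution and summarises each probe set, so shifts common to a whole array are not visible. All 36 sample columns were used, with values from 2.02 to 15.0, and 57 control probe sets were left out, leaving 31042. The platform annotation gave 1 gene symbol to 20826 of them, several to 436 and none to 9780; for 20758 the gene was found in the RefSeq table.

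The linear models were those of limma 3.58.1 (R 4.3.3), moderated by eBayes with 30 residual and 5.12 prior degrees of freedom, with two-sided contrasts, Benjamini-Hochberg adjustment over all probe sets and 95% intervals. The series' design text names another linear model package (maanova) and a false discovery rate of 5%; limma took its place here. The number of arrays, 6 per group, limits the precision.

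The members and the 29 gene lists, of which 496 of 562 listed genes were measured, were chosen with earlier results of these data known. Named were up to 10 genes per direction past the threshold, filled to 10 by the smallest p, of which the leading ones are given; 1 gene per direction in each contrast between steps; up to 3 genes per list; and a fixed set of followed genes. Mki67, Bub1, Col1a1, Vim, Clec4f, Alb, Hnf4a, Nr1i3, Nr1i2, Cyp7a1, App, Cars1 and Abhd3 were named after their values were seen, and the exact permutation tests of single genes were also added then. On simulated arrays, 50 probe sets each had true log2 changes of 0.25, 0.5, 1 and 1.5, among 31042. The step test called 26%, 80%, 98% and 100% of them, with 9 false calls. Its contrast with the step below called 0%, 32%, 90% and 100% of the same probe sets. All these probe sets were changed at once, with independent noise of the same SD in every group. Many true changes loosen the Benjamini-Hochberg cutoff, so these shares may overstate what the real step, with 1 call, could detect. Alternatives were another normalization, filters, variance settings, array weights, fewer arrays, a replicate block and leaving out each array.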

Additional observations from a re-analysis of the deposited data

Results flagged for a closer look

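In 125 groups of 6 arrays (both doses of each named gene, shared probe set and RNA quality measure, less Alb at 95.9 mg/kg, where all 6 values were equal), 5 held an array whose gap to its nearest neighbour, divided by the range of the group, passed Dixon's 95% critical value; chance gives about 1 in 20 such groups. Abhd3 in replicate 5 at 9.59 mg/kg had 8.69, against 3.42 for the next array. Cyp7a1 in replicate 1 at 95.9 mg/kg had 9.81, with the next at 10.52. Abcc3 in replicate 3 at 95.9 mg/kg had 6.74, with the next at 6.32. Alb in replicate 2 at 9.59 mg/kg had 14.96, with the others at 14.97 to 14.98. The actin 3' minus 5' difference in replicate 6 at 95.9 mg/kg was 1.01, with the next at 1.17.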

How the results depend on the processing

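The count of probe sets called higher over the step stayed at 1 under 21 of 22 alternatives and was 0 when the 12 arrays were fitted alone; the count called lower was 0 under all 22. The step of Cyp1a1 ranged from 1.44 to 1.82 over the alternatives and kept its call in 21 of them; the adjusted p ranged from 1.05e-05 to 0.246, the latter with the 12 arrays alone, where fewer arrays set the spread. The contrast with the step below called 0 probe sets, but 1 higher with only the groups compared, and, leaving out single arrays, from 0 to 16 higher and from 0 to 1 lower; 3 higher without 0.1 mg/kg replicate 6, the array with the lowest weight (0.517). The contrast with the step above called 0 under all 22 alternatives. The cause of these shifts was not tested.

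Same-numbered arrays of the 2 doses did not deviate together (correlations from -0.182 to -0.00811, 0 over 0.1, and 0 arrays closest to their own number). No pairing by number was detected, and whether the numbers follow a processing order was not tested. With the replicate block 1 probe set was called, and the adjusted p of Cyp1a1 was 0.000386.

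Steps near 0 changed sign in 42 of 1329 values of 61 named genes and shared probe sets. Leaving out single arrays gave ranges of -0.04302 to 0.05023 for the shared Cyp2b probe set, -0.03559 to 0.03935 for Cndp2, -0.04936 to 0.1103 for Ces2c, -0.02483 to 0.08472 for Tiparp, -0.02819 to 0.0501 for Ahrr, -0.01685 to 0.04889 for Cyp3a23-3a1, -0.01936 to 0.001494 for Ttr, -0.05245 to 0.04088 for Hnf4a, -0.02135 to 0.03691 for Nr1i2, -0.4986 to 0.06507 for Cyp7a1, -0.007549 to 0.3306 for Clec4f and -0.01085 to 0.04205 for the second shared Ugt1a probe set. Quantile normalization again gave 0.03138 for the shared Cyp2b probe set, subtracting array medians gave -0.0002489 for Cndp2 and -0.001591 for Alb, and array weights gave -0.006923 for Ces2c. All 435 list medians moved by less than the SD between arrays of the list's mean deviation. All 812 counts of called members stayed within 1.5 times. That SD exceeded some medians, with 0.388 against a median of 0.168 for Kupffer cell markers and 0.316 against -0.177 for ATF4 genes. A median could therefore reach 0 and still be counted as unchanged. Called members numbered 0 in every list but the AhR list, so those counts could not fall. The actin 3' minus 5' difference over the step kept its direction and did not pass the test when single arrays were left out; GAPDH was run only as given in the report.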
